A study of Mus musculus with 48 samples.

Results

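The 40 cell cycle and DNA replication genes described here were taken by symbol from the count table of mouse breast tumour lines and tumour myeloid cells, which holds 24054 gene symbols. All 40 were found. They were grouped by role into 18 mitosis genes, 10 replication genes, 4 nucleotide synthesis genes, 4 G1/S cyclin and kinase genes and 4 transcription factors. RNA-seq counts came from 48 libraries in 16 groups of 3. Macrophages and neutrophils, 12 libraries of each, were sorted from 2208L, T11, AT3 and E0771 tumours. The other 24 libraries were cultured lines: 2208L, T11, 4T1 and 67NR, labelled BALB/C, and AT3, E0771, PyMT-N and PyMT-M, labelled C57BL/6. Passage was 15 to 20 for 2208L, T11 and 4T1, 19 for 67NR, 15 for AT3, 14 for E0771 and PyMT-N and 7 for PyMT-M. E0771 was grown in RPMI and the others in DMEM. Sorted cells were live and CD45+ CD11b+, macrophages being Ly6G- Ly6C- F4/80+ and neutrophils Ly6G+ with medium to low Ly6C. E0771 macrophage 1 and E0771 neutrophil 1 carry the strain label BALB/C, unlike the rest of their groups, and were kept. No agent or engineered allele is named for any group, and the labels do not say which libraries came from separate animals or cultures. Macrophage and neutrophil libraries of a tumour carry the same sample numbers in the count table, gaps included, and may come from the same animals. Thus a p-value here speaks of the spread among libraries, which may be technical.

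A dividing cell copies its DNA in S phase and parts the copies in mitosis. At the G1/S border, cyclin E and CDK2 release E2F factors, which switch on the MCM helicase, the clamp PCNA and the enzymes that make deoxynucleotides. Later, FOXM1 and B-MYB drive the mitotic genes, among them cyclin B and CDK1, the Aurora and Polo kinases, the spindle motors and the anaphase-promoting complex with its activator CDC20. Cultured tumour lines divide all the time, mature neutrophils have left the cell cycle, and tissue macrophages can divide locally.

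Counts outside Rn45s, the ribosomal RNA precursor, ran from 683150 to 1755895 in macrophages, from 470712 to 1185233 in neutrophils and from 1893268 to 5749088 in lines. The 40 genes together took 1414 to 6978 counts in a macrophage library, 1031 to 2067 in a neutrophil library and 15818 to 55750 in a line library, so single genes in sorted cells often rest on few counts. Levels are CPM, counts normalised to the library size outside Rn45s and scaled with TMM factors, given with the SD of 3 libraries where averaged. Genes for olfactory and vomeronasal receptors, silent in most tissues, served as background per base of exon. The 8 neutrophil markers summed to 5230.1 to 8295 CPM in 2208L, 1065 to 3321 in T11, 5715 to 21173 in AT3 and 3491 to 5323 in E0771 tumour neutrophils, with all 8 detected in each group. The 10 macrophage markers summed to 14282 to 28249.9 CPM in 2208L, 7271 to 9690.1 in T11, 20549.9 to 23848 in AT3 and 5857 to 9904 in E0771 tumour macrophages, again with all 10 detected. The 6 hemoglobin symbols were at 0 in all 16 groups, the cultured lines included, so they are no measure of red cells here. Alas2, the 1 erythroid marker with counts, had group means of 5.71 to 22.4 CPM in sorted cells and 2.46 to 8.79 in lines.

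Promoters are shown for 3 genes of mitosis and 2 of replication, because short motifs known to serve these phases in mouse and human cells differed between the roles. RefSeq promoters, 250 bases before to 50 after the start on GRCm38.p6, were matched for 33 of the 40 genes, with 35 promoters in all. The motifs searched on both strands were TTTGAA, the cell cycle homology region, CCAAT, and the E2F motifs TTTCCCGC and TTTGGCGC, with overlaps allowed. Capitals mark every match on either strand, so a match on the other strand reads as its reverse complement.
Mki67, chr7:135716330-135716629, minus strand: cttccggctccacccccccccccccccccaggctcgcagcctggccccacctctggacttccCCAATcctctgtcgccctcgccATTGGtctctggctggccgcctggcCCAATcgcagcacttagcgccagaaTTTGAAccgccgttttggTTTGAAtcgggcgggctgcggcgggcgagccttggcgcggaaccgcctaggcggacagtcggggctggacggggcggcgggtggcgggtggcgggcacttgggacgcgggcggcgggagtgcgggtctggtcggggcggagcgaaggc
Top2a, chr11:99024140-99024439, minus strand: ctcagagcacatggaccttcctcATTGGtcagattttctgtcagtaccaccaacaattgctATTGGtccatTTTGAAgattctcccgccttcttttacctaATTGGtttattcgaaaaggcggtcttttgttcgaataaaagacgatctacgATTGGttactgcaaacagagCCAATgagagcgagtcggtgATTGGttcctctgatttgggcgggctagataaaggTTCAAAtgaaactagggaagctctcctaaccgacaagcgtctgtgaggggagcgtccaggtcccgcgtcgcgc
Cdk1, chr10:69352863-69353162, minus strand: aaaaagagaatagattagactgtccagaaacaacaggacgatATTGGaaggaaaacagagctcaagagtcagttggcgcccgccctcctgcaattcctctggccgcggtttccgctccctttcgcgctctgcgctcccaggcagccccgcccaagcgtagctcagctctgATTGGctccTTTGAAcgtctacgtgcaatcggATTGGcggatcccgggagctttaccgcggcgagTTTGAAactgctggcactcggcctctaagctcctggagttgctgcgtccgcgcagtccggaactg
Mcm5, chr8:75109259-75109558, plus strand: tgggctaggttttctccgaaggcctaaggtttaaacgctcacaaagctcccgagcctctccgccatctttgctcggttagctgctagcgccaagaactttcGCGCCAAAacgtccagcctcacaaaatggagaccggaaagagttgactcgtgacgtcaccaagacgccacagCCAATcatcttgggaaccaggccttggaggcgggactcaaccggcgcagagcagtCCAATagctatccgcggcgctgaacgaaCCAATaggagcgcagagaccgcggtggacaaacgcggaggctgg
Mcm6, chr1:128359656-128359955, minus strand: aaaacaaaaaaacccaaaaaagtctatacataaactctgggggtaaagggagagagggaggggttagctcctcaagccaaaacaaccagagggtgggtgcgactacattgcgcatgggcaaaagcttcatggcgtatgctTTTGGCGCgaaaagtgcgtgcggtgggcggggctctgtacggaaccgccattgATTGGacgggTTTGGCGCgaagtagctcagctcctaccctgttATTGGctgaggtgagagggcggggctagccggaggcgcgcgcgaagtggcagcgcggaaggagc
TTTGAA stood in 12 of 16 promoters of mitosis genes, in 1 of 9 of replication genes and in 17.9% of all 32851 promoters. CCAAT stood in 15 of 16, 7 of 9 and 37.4%. An E2F motif stood in 0 of 16, 6 of 9 and 1.56%. These matches are a description of the letters, not of bound sites.

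The first question was how far the genes vary between tumour lines in culture. All 40 differed among the 8 lines (F test, adjusted p below 0.05), against 89.6% of the 17534 genes tested, so the share called is close to the background. Over the lines the highest mean was 1.47 to 8.01 times the lowest, with a median of 1.99 over the 40 genes. Ccne1, cyclin E1, had the widest range, 141 ± 9.09 CPM in PyMT-N against 17.5 ± 3.69 in 4T1 (n = 3 each). Mki67, the Ki-67 protein that coats mitotic chromosomes, followed with a 4.68-fold range. The 4T1 line was lowest for 20 of the 40 genes and highest for 0, and AT3 was highest for 8 and lowest for 5. Which line is lowest depends on the scaling. With library size alone PyMT-N was lowest for 17 genes and 4T1 for 1, and with TMM factors from genes above background PyMT-N was lowest for 15 and 4T1 for 2. On these 2 scales Mki67 had the widest range in place of Ccne1. The 4T1 line was highest for 0 genes on both. Counts of this kind over all genes are not given, so they do not set the 40 apart.

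In order of level, Mki67 stood at 1334 ± 88.2 CPM in 67NR, 1066 ± 34.6 in 2208L, 988 ± 68.2 in PyMT-N, 853 ± 124 in 4T1, 795 ± 142 in AT3, 692 ± 36.9 in T11, 292 ± 29.05 in E0771 and 285 ± 22.6 in PyMT-M. The libraries of 67NR stood above those of 2208L without overlap, and those of T11 above those of E0771. The neighbours from 2208L down to T11 overlapped, as did E0771 and PyMT-M, so the lines fell into a high line, a broad middle and a low pair. Top2a, the topoisomerase that untangles sister DNA, kept within a 1.81-fold range and did not follow this order: E0771 and PyMT-M had 1468 ± 96.1 and 1399.7 ± 90.95 CPM, above the 1039 ± 136 of 4T1.

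**Figure D1:**
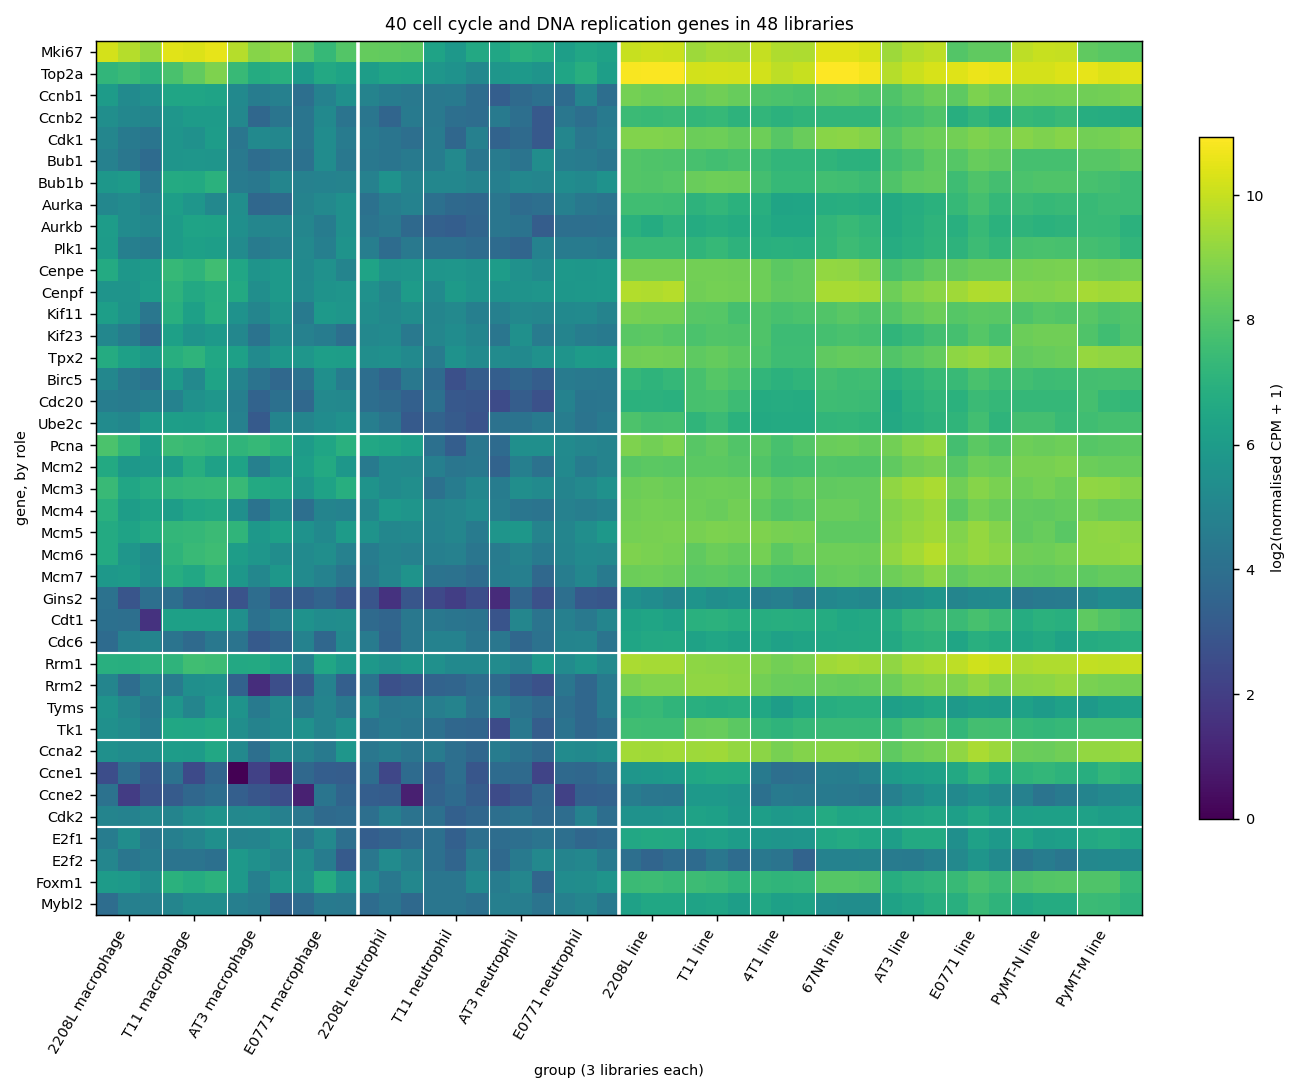
Heat map of the 40 genes, ordered by role, in the 48 libraries in blocks of macrophages, neutrophils and cultured lines. The colour is the level as log2 of CPM plus 1. The lines are bright for nearly all genes, macrophages are intermediate with T11 tumours brightest, neutrophils are dark, and Mki67 stays bright in macrophages.

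The 2208L and T11 lines are a same-strain pair that also gave tumours. In 2208L cells 14 of the 40 genes were higher and 9 lower, against 22.7% and 18.6% of all genes. The median log2 difference of the 40 was +0.14, against -0.02 over all genes. Mitosis genes were more often higher than lower in 2208L, 8 against 3 of 18, and none of the 4 G1/S genes was higher while 3 were lower. Cenpf, an outer kinetochore protein, had 806, 799 and 847 CPM in 2208L and 375, 395 and 395 in T11 libraries (log2 difference +1.07 ± 0.12, adjusted p = 1.5e-14; differences are log2 ± SE). Kif11, the motor that separates spindle poles, had 408, 385 and 389.8 CPM in 2208L and 269, 261 and 208 in T11 (log2 difference +0.68 ± 0.12, adjusted p = 3.9e-07). The 2208L libraries lay above all T11 libraries for both genes. Top2a had 1828, 1861 and 1859.5 CPM in 2208L and 1174, 1193 and 1162 in T11 (log2 difference +0.65 ± 0.12, adjusted p = 8.1e-07). Mki67 had 1034, 1103 and 1061 CPM in 2208L and 652, 724 and 701 in T11 (log2 difference +0.62 ± 0.12, adjusted p = 2.9e-06). Cdk1, the kinase that starts mitosis, had 469.6, 471 and 450.2 CPM in 2208L and 358, 369 and 327 in T11 (log2 difference +0.40 ± 0.12, adjusted p = 0.003). None of these 3 overlapped between the lines. Cdc20 was lower, at 125, 131 and 122 CPM in 2208L and 212, 219.5 and 178 in T11 (log2 difference -0.70 ± 0.13, adjusted p = 1.7e-06). Ccnb1, cyclin B1, overlapped, with 396, 365 and 373 CPM in 2208L and 346, 376 and 337 in T11 (+0.10 ± 0.12).

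Among replication and nucleotide genes, Pcna, the sliding clamp of DNA polymerase, had 456, 393 and 441 CPM in 2208L and 275, 305 and 248 in T11 (log2 difference +0.64 ± 0.12, adjusted p = 4.2e-06). Mcm5, a subunit of the replicative helicase, overlapped, with 407, 414 and 422 CPM in 2208L and 416, 444 and 432 in T11 (-0.06 ± 0.11). Tk1, the thymidine salvage kinase, had 193, 183 and 183 CPM in 2208L and 328, 338 and 292 in T11 (log2 difference -0.78 ± 0.12, adjusted p = 1.5e-08). Clamp and salvage enzyme thus moved in opposite directions. Rrm2, the regulated subunit of ribonucleotide reductase, had 429.8, 463 and 469.8 CPM in 2208L and 559, 557 and 529.8 in T11 (log2 difference -0.27 ± 0.11, adjusted p = 0.043). The call for Rrm2 was lost without any 1 of 15 of the 24 libraries. The cyclin E genes were both lower: Ccne2 had 23.9, 19.5 and 18.7 CPM in 2208L and 59.8, 60.2 and 52.6 in T11 (log2 difference -1.47 ± 0.18, adjusted p = 1.7e-12). Ccne1 had 52.1, 56.2 and 60.8 CPM in 2208L and 91.7, 100.1 and 97.2 in T11 (log2 difference -0.77 ± 0.14, adjusted p = 1.4e-06). Both cyclin E genes were apart in all libraries. Their partner Cdk2 had 46.8, 47.2 and 48.97 CPM in 2208L and 78.8, 72.6 and 56.02 in T11 (log2 difference -0.55 ± 0.15, adjusted p = 8.9e-04). E2f1, an activator E2F, had 93.00, 99.3 and 97.2 CPM in 2208L and 71.7, 75.3 and 64.8 in T11 (log2 difference +0.44 ± 0.14, adjusted p = 0.0074). Neither overlapped between the lines. Of the wider mitosis genes 19 were higher and 4 lower of 40 tested, led by Knstrn (+1.25 ± 0.13), Nusap1 (+1.17 ± 0.13) and Nek2 (+1.11 ± 0.12) and, lower, Cks2 (-0.45 ± 0.16), Espl1 (-0.37 ± 0.12) and Dlgap5 (-0.36 ± 0.13). Of the wider S phase genes 19 were higher and 10 lower of 41 tested, with Chaf1b (+0.99 ± 0.14) higher and Rpa3 (-1.56 ± 0.18) lower. With TMM factors from genes above background, added after values were seen, the 40 split into 14 higher and 12 lower, and 44.1% of all called genes were higher in place of 55.0%.

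4T1 and 67NR are sister lines. In 4T1 cells 2 of the 40 genes were higher and 22 lower, against 17.7% and 29.5% of all genes, and the median of the 40 was -0.45 against -0.05 over all genes. When TMM factors came from genes above background, the 40 split into 12 higher and 13 lower, and 65.3% of all called genes were higher in 4T1 in place of 37.5%, so the number of lower members depends on the scaling. Mybl2, the transcription factor B-MYB, was higher in 4T1, with 93.9, 72.9 and 78.3 CPM in 4T1 and 42.9, 40.4 and 40.6 in 67NR (log2 difference +0.98 ± 0.15, adjusted p = 6.5e-09). The other was Mcm5, with 458, 415 and 398 CPM in 4T1 and 298, 297 and 295 in 67NR (log2 difference +0.51 ± 0.11, adjusted p = 7.5e-05). Both were apart in all libraries and stayed higher under every scaling tried. Cenpf had 371, 309.8 and 321 CPM in 4T1 and 725, 728 and 676 in 67NR (log2 difference -1.09 ± 0.12, adjusted p = 7.4e-15). Top2a had 1179, 908 and 1028 CPM in 4T1 and 1959.5, 1954 and 1738 in 67NR (log2 difference -0.86 ± 0.12, adjusted p = 2.1e-10). The activators fell too. E2f1 had 53.8, 51.4 and 52.3 CPM in 4T1 and 92.2, 101.1 and 90.1 in 67NR (log2 difference -0.85 ± 0.14, adjusted p = 1.7e-07). E2f2 had 20.1, 17.3 and 10.2 CPM in 4T1 and 28.2, 27.8 and 29.05 in 67NR (log2 difference -0.87 ± 0.20, adjusted p = 8.9e-05). For each of these 4 genes every 4T1 library lay below every 67NR library.

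Mki67 had 994, 802 and 763 CPM in 4T1 and 1389, 1381 and 1232 in 67NR (log2 difference -0.65 ± 0.12, adjusted p = 9.2e-07). Cdk1 had 362, 271 and 344 CPM in 4T1 and 508, 528 and 483 in 67NR (log2 difference -0.64 ± 0.12, adjusted p = 1.2e-06). Both mitotic genes were lower without overlap. Pcna had 279, 218 and 256 CPM in 4T1 and 345, 354 and 324 in 67NR (log2 difference -0.44 ± 0.12, adjusted p = 0.0012). Cdk2 had 68.96, 59.4 and 63.8 CPM in 4T1 and 102, 85.3 and 86.8 in 67NR (log2 difference -0.52 ± 0.13, adjusted p = 6.0e-04). Ccne1 had 21.7, 14.8 and 16.1 CPM in 4T1 and 24.97, 23.6 and 28.4 in 67NR (log2 difference -0.57 ± 0.19, adjusted p = 0.0093), a call that was lost without 4T1 line 2 or 4T1 line 3. Ccnb1, Rrm2 and Ccne2 did not pass. Ccnb1 had 239, 227 and 215 CPM in 4T1 and 281, 287 and 254 in 67NR (-0.27 ± 0.12). Rrm2 had 387, 343 and 339 CPM in 4T1 and 332, 326 and 333 in 67NR (+0.11 ± 0.11). Ccne2 was low in both, with 15.2, 21.1 and 19.7 CPM in 4T1 and 22.03, 20.6 and 18.5 in 67NR (-0.11 ± 0.20). Among the wider mitosis genes 0 were higher and 32 lower of 40 tested, the largest falls being Gtse1 (-1.88 ± 0.15), Racgap1 (-1.37 ± 0.12) and Pttg1 (-1.23 ± 0.16). Of the wider S phase genes 5 were higher and 18 lower of 41 tested, with Cdc25a, the phosphatase that activates CDK2, higher (+0.87 ± 0.14) and the primase subunit Prim1 lower (-1.71 ± 0.13).

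AT3 and E0771 are the C57BL/6 pair that also gave tumours, and their culture medium differs with the line. In AT3 cells 11 of the 40 genes were higher and 20 lower, against 15.9% and 29.7% of all genes, with medians of -0.27 over the 40 and -0.04 over all genes. Directions differed by role: of the 10 replication genes 6 were higher and 1 lower, and of the 18 mitosis genes 3 were higher and 13 lower. On the scale of genes above background the 40 split into 19 higher and 8 lower, with 72.1% of all called genes higher in AT3 in place of 34.8%. Counts of higher members ran from 7, without AT3 line 3, to 16, without AT3 line 1, and without AT3 line 1 the lower members numbered 13. Mki67 had 647, 809 and 929 CPM in AT3 and 258, 309 and 307 in E0771 (log2 difference +1.45 ± 0.12, adjusted p = 9.7e-21). Pcna had 389, 488 and 579.9 CPM in AT3 and 199.6, 292 and 239 in E0771 (log2 difference +0.99 ± 0.12, adjusted p = 3.4e-12). For both the AT3 libraries all lay above the E0771 libraries. Ccnb2, cyclin B2, had 193, 206 and 242 CPM in AT3 and 113, 146 and 115 in E0771 (log2 difference +0.77 ± 0.12, adjusted p = 1.3e-08). Mcm4, of the helicase, had 472, 541 and 619 CPM in AT3 and 293, 399 and 342 in E0771 (log2 difference +0.66 ± 0.11, adjusted p = 4.1e-07). These were higher without overlap too.

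Tpx2, which activates Aurora A on the spindle, had 249, 292 and 322 CPM in AT3 and 546, 586 and 516 in E0771 (log2 difference -0.93 ± 0.11, adjusted p = 2.9e-12). Ccna2, cyclin A2, had 302, 362 and 397 CPM in AT3 and 561, 744 and 631 in E0771 (log2 difference -0.87 ± 0.11, adjusted p = 1.1e-10). E2f2 had 22.4, 21.3 and 26.1 CPM in AT3 and 34.4, 51.5 and 36.5 in E0771 (log2 difference -0.83 ± 0.16, adjusted p = 7.6e-06). These fell while Mki67 was higher, so the members did not move together. Top2a had 843, 1063 and 1228 CPM in AT3 and 1363, 1552 and 1488 in E0771 (log2 difference -0.49 ± 0.12, adjusted p = 1.9e-04). Cenpf had 368, 472 and 520.0 CPM in AT3 and 665, 790.2 and 779.8 in E0771 (log2 difference -0.72 ± 0.11, adjusted p = 3.8e-08). Ccne1 had 62.7, 71.9 and 75.9 CPM in AT3 and 94.8, 140.1 and 103 in E0771 (log2 difference -0.69 ± 0.13, adjusted p = 2.2e-06). These 3 were lower without overlap. E2f1 had 69.99, 97.8 and 99.6 CPM in AT3 and 42.2, 75.6 and 57.7 in E0771 (log2 difference +0.60 ± 0.14, adjusted p = 1.1e-04), with libraries that overlapped. Cdk1 had 268, 333 and 367 CPM in AT3 and 391, 456 and 406 in E0771 (log2 difference -0.37 ± 0.11, adjusted p = 0.0048). Ccnb1 had 241, 298 and 355 CPM in AT3 and 301, 435 and 374 in E0771 (log2 difference -0.32 ± 0.12, adjusted p = 0.019). The calls for Ccnb1 and Cdk1 turned to differences above 0 with factors from genes above background, and the call for Cdk1 was lost without AT3 line 1. Ccnb1 lost its call without AT3 line 1, AT3 line 2, E0771 line 2 or E0771 line 3. Mcm5, Rrm2, Ccne2 and Cdk2 did not pass. Mcm5 had 495, 584 and 656 CPM in AT3 and 461, 588 and 481 in E0771 (+0.18 ± 0.11). Rrm2 had 353, 445 and 475 CPM in AT3 and 452, 558 and 455 in E0771 (-0.20 ± 0.11). Ccne2 had 26.1, 36.1 and 46.7 CPM in AT3 and 35.6, 44.02 and 34.4 in E0771 (-0.08 ± 0.16). These 3 overlapped between the lines, as did Cdk2. Cdk2 had 73.9, 81.7 and 92.99 CPM in AT3 and 71.6, 92.4 and 68.8 in E0771 (+0.09 ± 0.13).

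Outside the 40 genes, 1 of the wider mitosis genes was higher and 24 lower of 40 tested, and Pttg1, securin, had the largest fall (-2.05 ± 0.15), before the condensin subunit Smc4 (-1.27 ± 0.12) and Hmmr (-1.20 ± 0.12), with Melk the 1 gene higher (+0.35 ± 0.12). Of the wider S phase genes 9 were higher and 9 lower of 41 tested. Dut, which removes dUTP, led those that were higher (+0.95 ± 0.13), and Mcm10 those that were lower (-0.76 ± 0.12). The roles also differed within each library, where scaling cannot act. The 10 replication genes took 34.3 to 34.7% of the counts of the 40 genes in AT3, against 24.4 to 24.9% in E0771, and 19.7% to 26.9% over the other 7 lines. Mitosis counts were 1.32, 1.34 and 1.34 times replication counts in AT3, against 2.11, 1.996 and 2.06 times in E0771.

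PyMT-N and PyMT-M share strain and name, and passage differs with the line. In PyMT-N cells 6 of the 40 genes were higher and 16 lower, against 23.1% and 21.8% of all genes, with medians of -0.14 over the 40 and -0.09 over all genes. Factors from genes above background split the 40 into 6 higher and 23 lower, with 41.2% of all called genes higher in place of 51.4%. Mki67 had 910.3, 1038 and 1016 CPM in PyMT-N and 309.9, 280.3 and 265 in PyMT-M (log2 difference +1.79 ± 0.12, adjusted p = 5.7e-27). Kif23, the cytokinesis motor, had 359, 378 and 384 CPM in PyMT-N and 242, 193 and 241 in PyMT-M (log2 difference +0.73 ± 0.12, adjusted p = 1.2e-07). Ccnb2 had 158, 150.0 and 169 CPM in PyMT-N and 112, 109 and 102 in PyMT-M (log2 difference +0.56 ± 0.12, adjusted p = 6.8e-05). All 3 were higher in every PyMT-N library. Rrm2 had 528, 535 and 592 CPM in PyMT-N and 420.3, 395 and 390.1 in PyMT-M (log2 difference +0.46 ± 0.11, adjusted p = 4.0e-04). Pcna had 367, 343 and 363 CPM in PyMT-N and 262, 284 and 293 in PyMT-M (log2 difference +0.36 ± 0.12, adjusted p = 0.011), a call lost without PyMT-M line 1.

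Several genes that load or activate the replicative helicase were lower in PyMT-N. Cdt1, which loads the helicase, had 109.7, 127 and 119.7 CPM in PyMT-N and 302, 246 and 206 in PyMT-M (log2 difference -1.09 ± 0.13, adjusted p = 4.5e-13). Mcm5 had 306, 336 and 283 CPM in PyMT-N and 546, 563 and 517 in PyMT-M (log2 difference -0.82 ± 0.12, adjusted p = 8.1e-10). Gins2, a helicase cofactor, had 19.4, 21.4 and 22.2 CPM in PyMT-N and 31.7, 39.4 and 34.1 in PyMT-M (log2 difference -0.74 ± 0.18, adjusted p = 2.4e-04). Each of these was apart in all libraries, and Cdc6, Mcm3 and Mcm6 were also lower (-0.34 ± 0.13, -0.49 ± 0.12 and -0.51 ± 0.12), while Mcm2 was higher (+0.29 ± 0.11). E2f2 had 18.1, 23.2 and 18.8 CPM in PyMT-N and 33.1, 35.7 and 36.1 in PyMT-M (log2 difference -0.82 ± 0.19, adjusted p = 1.2e-04). Ccne2 had 27.04, 17.6 and 21.1 CPM in PyMT-N and 29.3, 34.6 and 40.7 in PyMT-M (log2 difference -0.64 ± 0.19, adjusted p = 0.0026). E2f1 had 86.3, 66.4 and 71.9 CPM in PyMT-N and 96.1, 105 and 84.4 in PyMT-M (log2 difference -0.34 ± 0.14, adjusted p = 0.04). The call for E2f1 was lost without PyMT-N line 2, PyMT-N line 3, PyMT-M line 1 or PyMT-M line 2, and its libraries overlapped. Top2a, Ccnb1, Cdk1, Ccne1 and Cdk2 did not pass. Top2a had 1190.2, 1195 and 1299 CPM in PyMT-N and 1488, 1306 and 1405 in PyMT-M (-0.19 ± 0.12). Ccnb1 had 403, 391 and 399 CPM in PyMT-N and 376, 393 and 421 in PyMT-M (0.00 ± 0.12). Cdk1 had 492, 450.5 and 492 CPM in PyMT-N and 384, 402 and 455 in PyMT-M (+0.21 ± 0.12). Top2a was apart between the lines, and Ccnb1 and Cdk1 overlapped, as did Ccne1 and Cdk2. Ccne1 had 137, 151 and 134 CPM in PyMT-N and 115, 150.2 and 128 in PyMT-M (+0.10 ± 0.13). Cdk2 had 70.4, 72.4 and 72.3 CPM in PyMT-N and 76.4, 66.4 and 70.2 in PyMT-M (+0.01 ± 0.14). Of the wider S phase genes 5 were higher and 24 lower of 41 tested, among them Gins3 (-1.50 ± 0.16) and Gins1 (-1.39 ± 0.16), the partners of Gins2. Of the wider mitosis genes 8 were higher and 13 lower of 40 tested, with Pttg1 again the largest fall (-2.10 ± 0.18) and the checkpoint kinase Ttk the largest rise (+0.87 ± 0.14).

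**Figure D2:**
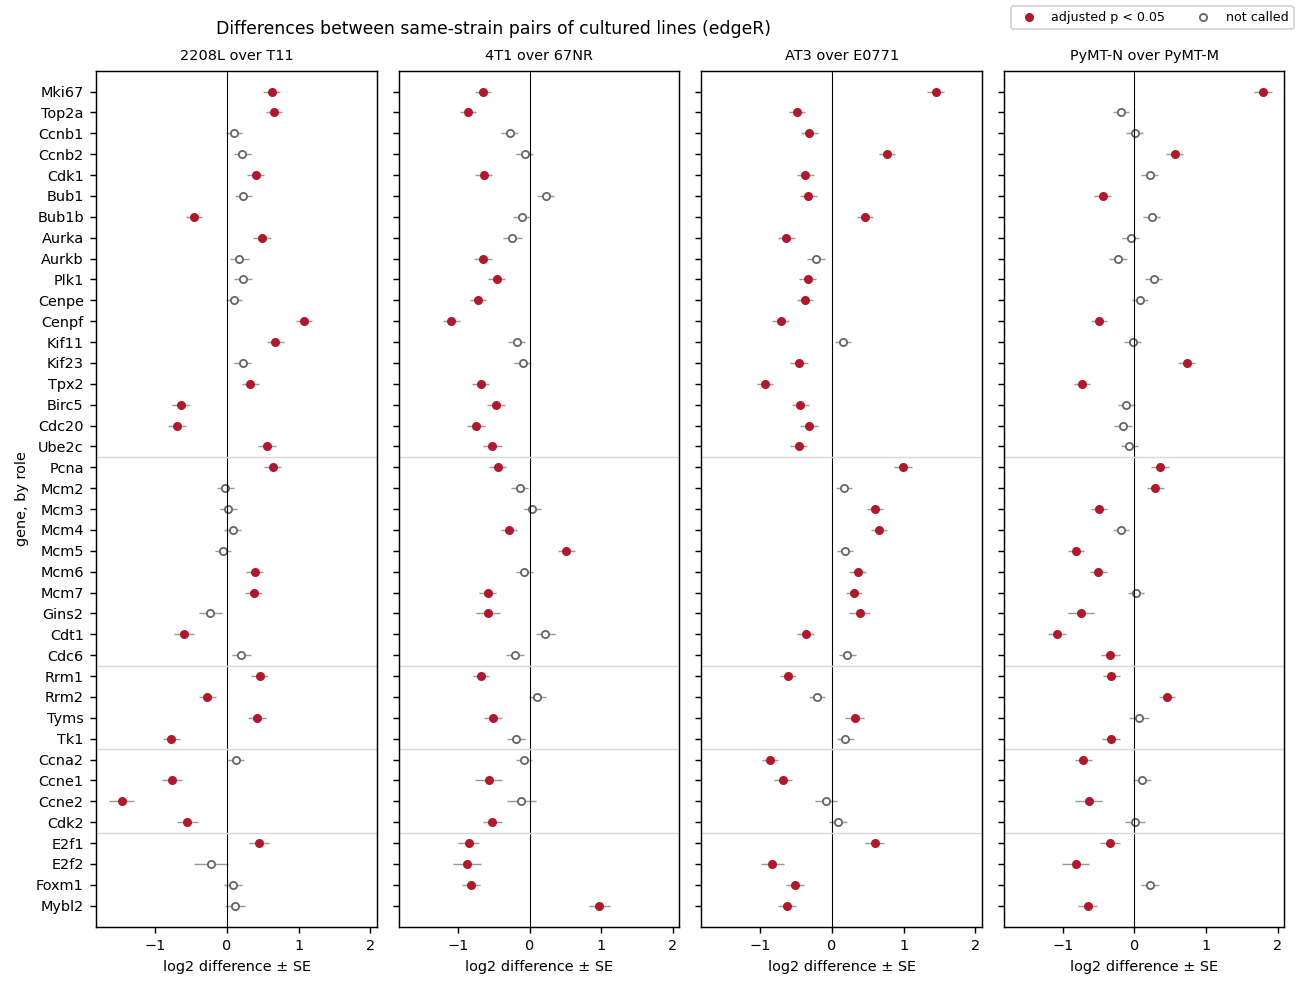
Log2 difference ± SE (3 against 3 libraries, edgeR) of the 40 genes in 4 same-strain pairs of lines, ordered by role. Filled points passed the adjusted p threshold of 0.05 and open points did not. Mki67 is highest of the genes in AT3 over E0771 and in PyMT-N over PyMT-M, replication genes are mostly right of 0 in AT3 over E0771, and most points lie left of 0 in 4T1 over 67NR.

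The 16 brakes of the cycle, inhibitors of cyclin-dependent kinases, pocket proteins and repressors, were read beside the 40 genes. Cdkn2a and Cdkn2b, neighbouring inhibitor genes, had 0 counts in all libraries of 5 lines: 4T1, AT3, E0771, PyMT-N and PyMT-M. In the other lines Cdkn2a had 69 summed counts in 2208L, 138 in T11 and 70 in 67NR. Cdkn2b had 236, 234 and 34 there. Against a floor of 3 counts over the 3 libraries, Cdkn2a was at least 16.04-fold lower in 4T1 than in 67NR, and Cdkn2b at least 7.80-fold lower. Cdkn1a, the inhibitor p21, had 4.89, 8.85 and 7.48 CPM in 4T1 and 141, 134 and 110.3 in 67NR (log2 difference -4.14 ± 0.19, adjusted p = 9.7e-41). In PyMT-N it had 256, 195 and 207 CPM, against 29.3, 30.8 and 29.5 in PyMT-M (log2 difference +2.88 ± 0.15, adjusted p = 2.3e-36). Cdkn1a thus stood apart in every library of both pairs, in opposite directions. Among the brakes tested, 6 higher and 3 lower of 15 were called in 2208L over T11, 0 higher and 11 lower of 15 in 4T1 over 67NR, 1 higher and 6 lower of 15 in AT3 over E0771 and 3 higher and 2 lower of 15 in PyMT-N over PyMT-M. Cdkn2c, the inhibitor p18, was higher in 2208L (+1.42 ± 0.16) and in AT3 (+0.67 ± 0.19), and Cdkn1b, p27, was lower in AT3 (-1.10 ± 0.19).

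Macrophages and neutrophils of the same tumours were compared next. In macrophages 32 of the 40 genes were higher and 1 lower, against 35.8% and 40.7% of the 17500 genes tested. The median of the 40 was +0.92, against -0.14 over all genes. This depends on scaling: with TMM factors from genes above background the 40 had a median of -0.03, against -1.43 over all genes, and split into 8 higher and 9 lower, while the share of called genes that were higher was 13.1% in place of 46.8%. With library size alone the 40 split into 14 higher and 9 lower, with medians of +0.14 and -1.12 and 18.5% of called genes higher. On each scale the median of the 40 lay above that of all genes. Over the sorted libraries 4732 genes were at least 10-fold above background, so most of the 17500 tested were not. Before TMM scaling, receptor genes took 3861 to 18878 CPM in neutrophil and 870 to 3245 in macrophage libraries. How far background moves the median of all genes was not tested. Relative to receptor genes per exon base, 37 of the 40 were at least 10-fold above background over the macrophage libraries together. Gins2, Ccne1 and Ccne2 were not. Over the neutrophil libraries together 3 were, Mki67, Pcna and Ccnb2. All genes went the same way, with 9609 passing in macrophages and 2294 in neutrophils, so this contrast is not particular to the 40. By tumour the numbers were 35 in 2208L, 39 in T11, 35 in AT3 and 32 in E0771 macrophages. In neutrophils they were 12 in 2208L, 0 in T11, 1 in AT3 and 13 in E0771 tumours. The median ratio to receptor genes was 28.1 in 2208L, 69.1 in T11, 31.3 in AT3 and 17 in E0771 macrophages, and 7.27, 3.69, 3.90 and 7.45 in the neutrophils of the same tumours. In these bulk libraries, fewer cycling cells and less RNA of a gene per cell cannot be told apart.

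Mki67 led the difference. In 2208L tumours it had 1195, 849.7 and 587 CPM in macrophages and 331, 321 and 300.1 in neutrophils. In T11 tumours it had 1409, 1295 and 1473 CPM in macrophages and 79.97, 55.9 and 96.3 in neutrophils. In AT3 tumours it had 830.3, 495 and 571 CPM in macrophages and 88.3, 121 and 109 in neutrophils. T11 macrophages thus stood highest and T11 neutrophils among the lowest. In E0771 tumours Mki67 had 260.0, 161 and 260.4 CPM in macrophages and 70.1, 88.3 and 78.1 in neutrophils. In each tumour every macrophage library lay above every neutrophil library (log2 difference +2.43 ± 0.17, adjusted p = 1.1e-16). Pcna had 228, 152 and 67.3 CPM in macrophages and 94.02, 83.6 and 70.1 in neutrophils of 2208L tumours, and 181, 166 and 152 CPM in macrophages and 15.4, 8.54 and 19.3 in neutrophils of T11 tumours. In AT3 tumours it had 143, 159.9 and 127 CPM in macrophages and 13.2, 42.7 and 42.4 in neutrophils. In E0771 tumours it had 63.2, 86.3 and 120.4 CPM in macrophages and 36.7, 31.4 and 28.6 in neutrophils. Pcna overlapped between the cell types in 2208L tumours and was apart in the others (log2 difference +2.00 ± 0.18, adjusted p = 2.6e-13). Top2a had 145, 167 and 133 CPM in macrophages and 66.1, 83.6 and 81.3 in neutrophils of 2208L tumours, and 221, 315 and 453 CPM in macrophages and 52.1, 47.4 and 33.5 in neutrophils of T11 tumours. In AT3 tumours it had 164, 106 and 118 CPM in macrophages and 52.7, 59.5 and 49.7 in neutrophils. In E0771 tumours it had 61.2, 96.97 and 80.5 CPM in macrophages and 85.9, 116 and 69.3 in neutrophils. Only in E0771 tumours did the cell types overlap for Top2a (log2 difference +1.23 ± 0.15, adjusted p = 1.1e-09 over the 4 tumours).

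Of the helicase, Mcm5 had 102, 79.3 and 102 CPM in macrophages and 48.6, 32.1 and 35.5 in neutrophils of 2208L tumours, and 151, 155 and 174 CPM in macrophages and 27.9, 31.1 and 22.6 in neutrophils of T11 tumours. In AT3 tumours it had 139.7, 55.2 and 73.5 CPM in macrophages and 51.1, 53.6 and 28.6 in neutrophils. In E0771 tumours it had 47.2, 35.2 and 63.2 CPM in macrophages and 30.9, 41.3 and 56.1 in neutrophils. Mcm5 likewise overlapped in E0771 tumours alone (log2 difference +1.26 ± 0.16, adjusted p = 3.9e-09 over the 4 tumours). The differences of Mcm3 (+1.80 ± 0.16) and Tk1 (+1.72 ± 0.19) were larger. Cdk1 had 31.2, 21.2 and 18.1 CPM in macrophages and 21.5, 18.1 and 14.96 in neutrophils of 2208L tumours, and 51.7, 45.2 and 65.1 CPM in macrophages and 22.7, 11.7 and 25.96 in neutrophils of T11 tumours. In AT3 tumours it had 18.6, 35.99 and 32.5 CPM in macrophages and 10.1, 12.6 and 7.37 in neutrophils. In E0771 tumours it had 18.1, 39.4 and 22.6 CPM in macrophages and 31.7, 18.98 and 24.2 in neutrophils. Libraries of Cdk1 were apart in T11 and AT3 tumours and overlapped in the others (log2 difference +0.85 ± 0.19, adjusted p = 1.5e-04), and its difference turned to -0.07 with factors from genes above background. Ccnb1, E2f1 and Cdk2 were also called higher. In macrophages Ccnb1 had 64.1, 36.8 and 44.2 CPM in 2208L, 85.6, 84.5 and 80.4 in T11, 35.2, 23.4 and 26.5 in AT3 and 15.1, 27.7 and 43.6 in E0771 tumours. In neutrophils it had 28.7, 23.4 and 20.6 CPM in 2208L, 20.5, 20.97 and 14.2 in T11, 8.52, 12.6 and 15.7 in AT3 and 13.3, 30.5 and 14.3 in E0771 tumours. Its libraries were apart in all but E0771 tumours (log2 difference +1.23 ± 0.19, adjusted p = 1.5e-07). In macrophages E2f1 had 22.99, 39.7 and 20.1 CPM in 2208L, 25.5, 30.3 and 42.5 in T11, 28.3, 29.3 and 41.9 in AT3 and 20.1, 34.1 and 15.05 in E0771 tumours. In neutrophils it had 8.76, 10.04 and 13.1 CPM in 2208L, 15.4, 9.32 and 15.1 in T11, 13.9, 15.1 and 17.5 in AT3 and 15.01, 11.6 and 13.2 in E0771 tumours. These were apart in all 4 tumours, narrowly in E0771 (log2 difference +1.14 ± 0.20, adjusted p = 3.2e-06). In macrophages Cdk2 had 29.6, 27.6 and 32.2 CPM in 2208L, 29.3, 40.6 and 47.9 in T11, 33.2, 35.2 and 26.5 in AT3 and 19.1, 12.8 and 13.5 in E0771 tumours. In neutrophils it had 15.1, 25.4 and 16.8 CPM in 2208L, 15.4, 9.32 and 11.7 in T11, 14.7, 16.7 and 12.9 in AT3 and 14.2, 28.1 and 14.3 in E0771 tumours. Its libraries overlapped in E0771 tumours and were apart in the others (log2 difference +0.76 ± 0.19, adjusted p = 4.4e-04), and its difference turned to -0.14 with factors from genes above background.

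Rrm2 was low in all sorted cells, with 30.4, 14.2 and 27.1 CPM in 2208L, 22.4, 42.6 and 45.2 in T11, 9.77, 1.67 and 5.13 in AT3 and 7.03, 27.7 and 9.03 in E0771 macrophages. In neutrophils Rrm2 had 16.7, 5.35 and 6.54 CPM in 2208L, 10.3, 10.9 and 14.2 in T11, 12.4, 7.54 and 5.53 in AT3 and 18.4, 11.6 and 20.9 in E0771 tumours. Its difference did not pass (+0.51 ± 0.27, adjusted p = 0.08). Ccne1 was the 1 gene called lower (log2 difference -0.82 ± 0.33, adjusted p = 0.025), a call that was lost without AT3 macrophage 1, T11 neutrophil 2 or 2208L neutrophil 1. Over all libraries of a cell type together, Ccne1 is not above background in macrophages or in neutrophils. In macrophages Ccne1 had 4.93, 14.2 and 7.04 CPM in 2208L, 16.2, 4.52 and 10.8 in T11, 0, 3.35 and 0.855 in AT3 and 12.05, 8.53 and 8.28 in E0771 tumours, with 0, 4 and 1 counts in AT3 macrophages. In neutrophils Ccne1 had 14.3, 4.01 and 13.1 CPM in 2208L, 8.80, 14.8 and 6.70 in T11, 13.2, 12.6 and 3.69 in AT3 and 12.5, 11.6 and 14.3 in E0771 tumours. The cell types overlapped in 2208L, T11 and E0771 tumours, and in AT3 tumours every macrophage library lay below every neutrophil library. In macrophages Ccne2 had 16.4, 2.83 and 6.03 CPM in 2208L, 7.71, 11.6 and 14.5 in T11, 8.79, 6.70 and 5.13 in AT3 and 1.004, 18.1 and 10.5 in E0771 tumours. In neutrophils it had 8.76, 8.03 and 0.935 CPM in 2208L, 10.3, 13.2 and 8.38 in T11, 4.65, 6.70 and 11.98 in AT3 and 3.34, 9.08 and 9.90 in E0771 tumours. Ccne2 did not pass (+0.20 ± 0.34). Of the wider genes, 22 higher and 1 lower of 40 mitosis genes and 16 higher and 1 lower of 40 S phase genes were called, with Racgap1 (+1.45 ± 0.17), Espl1 (+1.35 ± 0.15), Fen1 (+1.54 ± 0.23) and Pold1 (+1.29 ± 0.18) among those higher and Kif4 (-0.67 ± 0.21) and Exo1 (-0.62 ± 0.22) the 2 lower. Markers of other cell types were also present: the 8 T and NK markers, all detected, summed to 117 to 158 CPM in 2208L, 23.5 to 32.9 in T11, 19.5 to 24.8 in AT3 and 167 to 188 in E0771 macrophages. In neutrophils they summed to 46.1 to 77.4 CPM. The 7 epithelial markers summed to 299 to 399 CPM in 2208L macrophages and 367 to 394 in 2208L neutrophils, above the 21.7 to 29.04 of T11 macrophages and 71.5 to 86.6 of T11 neutrophils. Their part in these differences was not tested.

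**Figure D3:**
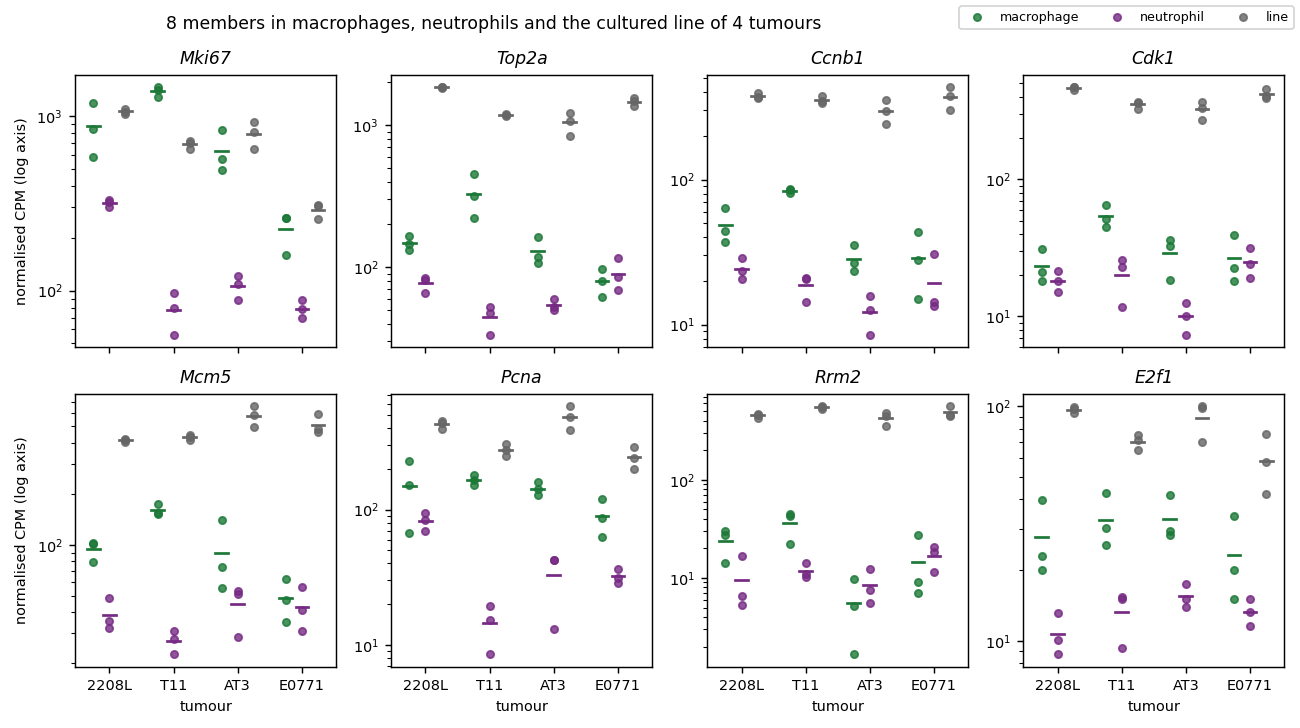
Level in CPM (log axis) of 8 of the genes in each of the 3 libraries of macrophages, neutrophils and the cultured line of 4 tumours, with a bar at the mean. The Mki67 mean of macrophages is 82.3% of the line in 2208L, 201% in T11, 79.5% in AT3 and 77.9% in E0771 tumours. Top2a, Cdk1 and Rrm2 of macrophages and neutrophils lie below all libraries of the line.

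The difference between macrophages and neutrophils varied between tumours for 21 of the 40 genes, against 32.1% of all genes (F test of the interaction). The number was 12 without T11 neutrophil 2 and 11 with TMM factors from genes above background. For Mki67 (adjusted p = 2.9e-05) the macrophage mean was 2.77 times that of neutrophils in 2208L, 17.99 times in T11, 5.97 times in AT3 and 2.88 times in E0771 tumours. For Top2a (adjusted p = 4.2e-06) the ratio was 1.93 in 2208L, 7.44 in T11, 2.399 in AT3 and 0.882 in E0771 tumours. T11 tumours had the largest ratio for both, also with library size alone (7.12 for Mki67 and 2.94 for Top2a) and with TMM factors from genes above background (4.94 and 1.99). Over the 40 genes the median ratio was 1.84 in 2208L, 3.75 in T11, 1.77 in AT3 and 1.18 in E0771 tumours, and macrophages had the higher mean for 35, 38, 33 and 26 genes in that order of tumours. These medians depend on the scaling. With library size alone they were 1.45 in 2208L, 1.48 in T11, 0.941 in AT3 and 0.807 in E0771 tumours, with the higher mean in macrophages for 32, 29, 19 and 13 genes. With factors from genes above background they were 1.64, 1.01, 0.927 and 0.685, with 35, 20, 19 and 8 genes. Of the 4, 2208L tumours alone had the higher mean in macrophages for at least 32 genes on all 3 scales. Such counts over all genes are not given, so they do not set the 40 apart. Sums of macrophage markers in neutrophils, given above, also differed between tumours, and what they add was not tested.

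Whether the genes vary with the tumour was asked within each cell type. Among neutrophils 9 of the 39 genes tested differed between tumours, against 33.6% of 16898 genes, and Gins2 was too low to test. The 9 were Mki67, Top2a, Cdk1, Birc5, Cdc20, Ube2c, Pcna, Mcm4 and Ccna2. Without 2208L neutrophil 2 or E0771 neutrophil 1 the number was 5. In neutrophils of 2208L over T11 tumours 6 genes were higher and 0 lower, against 25.4% and 6.97% of all genes. Pcna (+2.52 ± 0.35, adjusted p = 2.4e-06) and Mki67 (+2.03 ± 0.35, adjusted p = 3.7e-05) led, with the values above, and no library of these groups overlapped for either. Mcm7 had 20.7, 30.1 and 47.7 CPM in 2208L and 16.9, 16.3 and 13.4 in T11 neutrophils (log2 difference +1.06 ± 0.34, adjusted p = 0.016). Ube2c, the ubiquitin carrier of the anaphase-promoting complex, had 24.7, 17.4 and 7.48 CPM in 2208L and 10.3, 7.77 and 5.86 in T11 neutrophils (log2 difference +1.05 ± 0.41, adjusted p = 0.046). Mcm3 (+0.81 ± 0.30) and Top2a (+0.79 ± 0.30) completed the 6. The count was 3 without any 1 of 2208L neutrophil 2, 2208L neutrophil 3, T11 neutrophil 2, T11 neutrophil 3 or E0771 neutrophil 1.

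Most of these neutrophil calls changed with the scaling. On the scale of genes above background the 39 split into 2 higher and 28 lower, 4.85% of all called genes were higher in place of 78.5%, and the median of all genes was -1.49 in place of +0.08. With library size alone the 39 split into 2 higher and 10 lower, and 20.7% of all called genes were higher. Mki67 and Pcna were higher in 2208L on all 3 scales, with +0.56 and +1.06 on the first of these and +1.21 and +1.70 with library size alone, while Top2a, Mcm7 and Ube2c turned to -0.71, -0.43 and -0.42 with factors from genes above background. As shares of the counts of the 40 genes, Mki67 took 21.6 to 23.2% in 2208L and 6.15 to 10.8% in T11 neutrophils. Markers of other cells differed between the same groups. The 10 macrophage markers, all detected, summed to 3857 to 6001 CPM in 2208L and 314 to 666 in T11 neutrophils. Monocyte markers summed to 98.8 to 145 CPM in 2208L and 54.4 to 71.2 in T11 neutrophils. The 10 immature neutrophil markers, all detected, summed to 160.2 to 192 CPM in 2208L and 94.8 to 117 in T11 neutrophils. Their part in the difference was not tested. Cdkn1a was higher in 2208L neutrophils (+2.57 ± 0.52), as were Cdkn1b (+1.39 ± 0.38) and Fzr1 (+0.95 ± 0.29), of 4 higher and 0 lower of 12 tested. Of the wider genes, Cks2 and Cenpa rose and Kif2c fell (+2.397 ± 0.57, +1.16 ± 0.39 and -0.86 ± 0.31), and of the S phase genes 4 were higher and 0 lower of 39 tested, led by Rfc5 (+1.26 ± 0.31).

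In neutrophils of AT3 over E0771 tumours 0 of the 39 genes were higher and 3 lower, against 2.72% and 1.8% of all genes. Cdc20, the activator of the anaphase-promoting complex, had 4.65, 8.37 and 5.53 CPM in AT3 and 27.5, 18.2 and 18.7 in E0771 neutrophils (log2 difference -1.79 ± 0.44, adjusted p = 0.015). Ccna2 had 23.2, 16.7 and 12.9 CPM in AT3 and 37.5, 35.5 and 39.6 in E0771 neutrophils (log2 difference -1.07 ± 0.32, adjusted p = 0.044). Cdk1, with the values above, was the other (log2 difference -1.30 ± 0.38, adjusted p = 0.039). All 3 were apart in the libraries. Over the 12 neutrophil libraries together, all 3 were below 10-fold of background. In E0771 neutrophils alone 13 of the 40 genes were at least 10-fold above it, and in AT3 neutrophils 1 was. None of Cdc20, Ccna2 and Cdk1 was called without AT3 neutrophil 3 or without E0771 neutrophil 1, the library with the other strain label. The number was 1 without any 1 of T11 neutrophil 3, 2208L neutrophil 1, 2208L neutrophil 3, E0771 neutrophil 2 or E0771 neutrophil 3. With DESeq2 1 was called. With TMM factors from genes above background 0 higher and 3 lower were called, with 28.3% of all called genes higher in place of 60.2%. Mki67 and Pcna were not called (+0.42 ± 0.34 and +0.01 ± 0.34). Cdkn1a was higher in AT3 neutrophils, with 195, 1191 and 644 CPM in AT3 and 80.9, 106 and 125 in E0771 (log2 difference +2.70 ± 0.51, adjusted p = 0.0021), and the brake Fzr1 (-1.08 ± 0.32) and the S phase gene Uhrf1 were lower (-1.08 ± 0.29). The macrophage markers summed to 2037 to 3535 CPM in AT3 and 797 to 842 in E0771 neutrophils, and the monocyte markers to 184 to 408 and 119 to 139.7 CPM in AT3 and E0771 neutrophils. Their part was not tested.

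Among macrophages 27 of the 40 genes differed between tumours, against 40.2% of the 13380 genes tested. T11 macrophages had the highest mean for 35 of the 40 genes, and for 32 with library size alone and 31 with TMM factors from genes above background. The same count over all genes is not given, so this does not set the 40 apart. The summed level of the 40 was 2171 to 3559 CPM in 2208L, 4502 to 5117 in T11, 1794 to 2862 in AT3 and 1419 to 1748 in E0771 macrophages. In 2208L over T11 macrophages 0 genes were higher and 14 lower, against 7.47% and 10.7% of all genes, with medians of -0.75 over the 40 and -0.12 over all genes. Cdt1 had 15.6, 14.9 and 2.01 CPM in 2208L and 74.1, 72.9 and 72.3 in T11 macrophages (log2 difference -2.70 ± 0.44, adjusted p = 2.6e-05). Kif23 had 32.8, 23.4 and 12.1 CPM in 2208L and 73.3, 50.3 and 57.8 in T11 macrophages (log2 difference -1.39 ± 0.40, adjusted p = 0.012). Tk1 had 43.5, 38.2 and 23.1 CPM in 2208L and 91.03, 88.4 and 97.6 in T11 macrophages (log2 difference -1.39 ± 0.33, adjusted p = 0.0024). All 14 called genes were apart in the libraries. Mcm6 had 102, 52.4 and 36.2 CPM in 2208L and 138, 169.7 and 187 in T11 macrophages (log2 difference -1.37 ± 0.32, adjusted p = 0.0024). Top2a (log2 difference -1.15 ± 0.28, adjusted p = 0.0037) and Cdk1 (log2 difference -1.19 ± 0.39, adjusted p = 0.03) were among the 14 with the values given above. The call for Cdk1 was lost without any 1 of 5 macrophage libraries. That for Kif23 was lost without T11 macrophage 1 or 2208L macrophage 3, and that for Top2a without T11 macrophage 3.

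Mki67, Ccnb1, Mcm5 and Pcna were not called between these macrophages (-0.67 ± 0.28, -0.79 ± 0.35, -0.77 ± 0.31 and -0.15 ± 0.31). The 9 mitosis genes called were Top2a, Cdk1, Bub1, Bub1b, Cenpe, Cenpf, Kif11, Kif23 and Birc5. With TMM factors from genes above background 7 of the 40 were lower and 0 higher, with 61.3% of all called genes higher in place of 41.2%, and with library size alone 8 were lower and 0 higher, with 57.0%. Leaving out 1 library gave 6 to 17 lower genes, 6 without 2208L macrophage 3, 8 without 2208L macrophage 2 or T11 macrophage 1 and 9 without T11 macrophage 3. Of the wider genes, 0 higher and 10 lower of 40 mitosis and 0 higher and 7 lower of 40 S phase genes were called, with Ccnf (-1.95 ± 0.33), Kif18b (-1.73 ± 0.37), Tipin (-1.96 ± 0.54) and Chaf1a (-1.61 ± 0.45) at their head. Rb1, the pocket protein that holds E2F, was higher in 2208L macrophages (+0.84 ± 0.30), and Fzr1, which keeps the anaphase-promoting complex active in G1, was lower (-1.42 ± 0.35), the 2 brakes called here. The 6 mesenchymal markers, all detected, summed to 112 to 186 CPM in 2208L and 80.01 to 125 in T11 macrophages, against 1079 to 1228 in T11 cells in culture. In every library of 2208L macrophages the macrophage, neutrophil, immature neutrophil, dendritic, T and NK, B, epithelial and endothelial lists summed higher than in T11 macrophages, while the monocyte list overlapped. Their part in the difference was not tested.

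In AT3 over E0771 macrophages 2 of the 40 genes were higher and 1 lower, against 14.4% and 7.67% of all genes, with medians of +0.02 over the 40 and +0.19 over all genes. Mki67 was higher in AT3 (log2 difference +1.47 ± 0.29, adjusted p = 5.6e-04), with no overlap between the libraries given above. Mcm5 passed narrowly (+0.86 ± 0.32, adjusted p = 0.0499) with overlapping libraries. Its call was lost without any 1 of 9 libraries, among them AT3 macrophage 1 and E0771 macrophage 1, and 4 genes were higher without 2208L macrophage 1. Ccne1 was lower, with 0, 3.35 and 0.855 CPM in AT3 and 12.05, 8.53 and 8.28 in E0771 macrophages (log2 difference -2.64 ± 0.92, adjusted p = 0.037), on 5 and 31 summed counts. Its call was lost without AT3 macrophage 1, AT3 macrophage 3, E0771 macrophage 1, E0771 macrophage 2 or T11 macrophage 1, and 0 genes were lower without any 1 of the last 4. With TMM factors from genes above background 1 higher and 6 lower were called, with 21.9% of all called genes higher in place of 65.2%, and with library size alone 1 higher and 9 lower, with 16.5%. Mki67 was higher on all 3 scales. Top2a, Cdk2 and Pcna did not pass (+0.70 ± 0.29, +1.06 ± 0.40 and +0.66 ± 0.32), although their libraries did not overlap. Of the wider lists Espl1, separase (+1.06 ± 0.29), and Pola1, a subunit of the polymerase that primes DNA synthesis (+1.26 ± 0.41), were higher, and Gtse1 (-1.36 ± 0.45) and Ccnf (-1.05 ± 0.34) lower. The 1 brake called was Cdkn2d, the inhibitor p19, higher in AT3 (+2.36 ± 0.72). Monocyte markers summed to 576 to 1138 CPM in AT3 and 82.3 to 357 in E0771 macrophages, macrophage markers were also higher in AT3, and epithelial markers summed to 125 to 182 and 30.1 to 92.7 CPM in AT3 and E0771 macrophages. Dendritic cell markers summed to 15.1 to 20.5 CPM in AT3 and 124 to 458 in E0771 macrophages, and endothelial markers to 35.04 to 54.4 and 199.8 to 203 CPM in AT3 and E0771 macrophages. All of these lists and the T and NK list were apart between the groups. Their part was not tested.

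Sorted cells were last set against the cultured line of the same tumour. Cell type, culture and RNA kit differ together here and cannot be told apart, and the 2 comparisons share the line libraries. In macrophages 0 of the 40 genes were higher and 38 lower, against 19.9% and 40.4% of the 19197 genes tested, with medians of -2.33 over the 40 and -0.31 over all genes. In neutrophils 0 were higher and 39 lower, against 49.2% and 39.2%, with medians of -3.24 and +0.42. Of all called genes 32.95% were higher in macrophages and 55.6% in neutrophils, and 54.5% and 79.7% with library size alone, on which scale the 40 split into 2 higher and 38 lower in macrophages and 1 higher and 39 lower in neutrophils. In macrophages the median gene of the 40 stood at 19.5% of the line in 2208L, 37.4% in T11, 16.1% in AT3 and 16.8% in E0771 tumours, and in neutrophils at 11.0%, 9.47%, 11.0% and 11.7%. With library size alone these were 32.2%, 47.8%, 16.5% and 30.1% in macrophages and 22.2%, 30.8%, 21.2% and 31.3% in neutrophils.

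The fall was uneven over the genes. Rrm2 fell furthest, by 4.89 ± 0.15 in macrophages and 5.40 ± 0.16 in neutrophils (log2 ± SE, adjusted p = 5.0e-41 and 9.8e-43). In the lines Rrm2 had 429.8, 463 and 469.8 CPM in 2208L, 559, 557 and 529.8 in T11, 353, 445 and 475 in AT3 and 452, 558 and 455 in E0771, far above all sorted libraries. Ccna2 fell by 3.77 ± 0.12 in macrophages and 4.67 ± 0.13 in neutrophils, and Cdk1 by 3.61 ± 0.12 and 4.46 ± 0.13. Top2a fell by 3.17 ± 0.12 and 4.399 ± 0.12, and Ccne1 by 3.73 ± 0.18 and 2.92 ± 0.15. Smaller falls in macrophages were those of Pcna (-1.36 ± 0.12), E2f1 (-1.43 ± 0.12) and Cdk2 (-1.32 ± 0.12). Mki67 and E2f2 were the members not called in macrophages. For Mki67 the macrophage difference was +0.01 ± 0.11 (adjusted p = 0.95), the mean of macrophages being 82.3% of the line in 2208L, 201% in T11, 79.5% in AT3 and 77.9% in E0771 tumours. With library size alone these shares were 132%, 258%, 81.5% and 139.9%, and with factors from genes above background 84.1%, 159.3%, 52.4% and 95.7%. In neutrophils Mki67 fell by 2.43 ± 0.12. E2f2, low everywhere, differed by +0.27 ± 0.16 in macrophages and +0.13 ± 0.16 in neutrophils, both short of the threshold. Of the wider mitosis genes 39 of 40 were lower in macrophages and in neutrophils, and of the wider S phase genes 41 of 41 in both, with Rpa3, the small subunit of the single-strand binder, falling by 5.65 ± 0.27 and 4.66 ± 0.23. Cit, citron kinase, was the 1 wider gene higher in macrophages (+0.39 ± 0.12).

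Brakes went the other way in part. Cdkn1a was higher than in the line in macrophages (log2 difference +3.24 ± 0.17, adjusted p = 3.6e-28) and in neutrophils (log2 difference +3.06 ± 0.17, adjusted p = 1.2e-26). Rb1 was higher in macrophages (+1.64 ± 0.11) and Cdkn1b in neutrophils (+1.25 ± 0.16). Cdkn2c (-2.62 ± 0.20 in macrophages and -3.34 ± 0.21 in neutrophils) and Gmnn, which blocks CDT1 (-1.93 ± 0.13 and -3.01 ± 0.14), were lower. Of the brakes tested, 5 higher and 8 lower of 15 were called in macrophages and 5 higher and 10 lower of 15 in neutrophils.

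**Figure D4:**
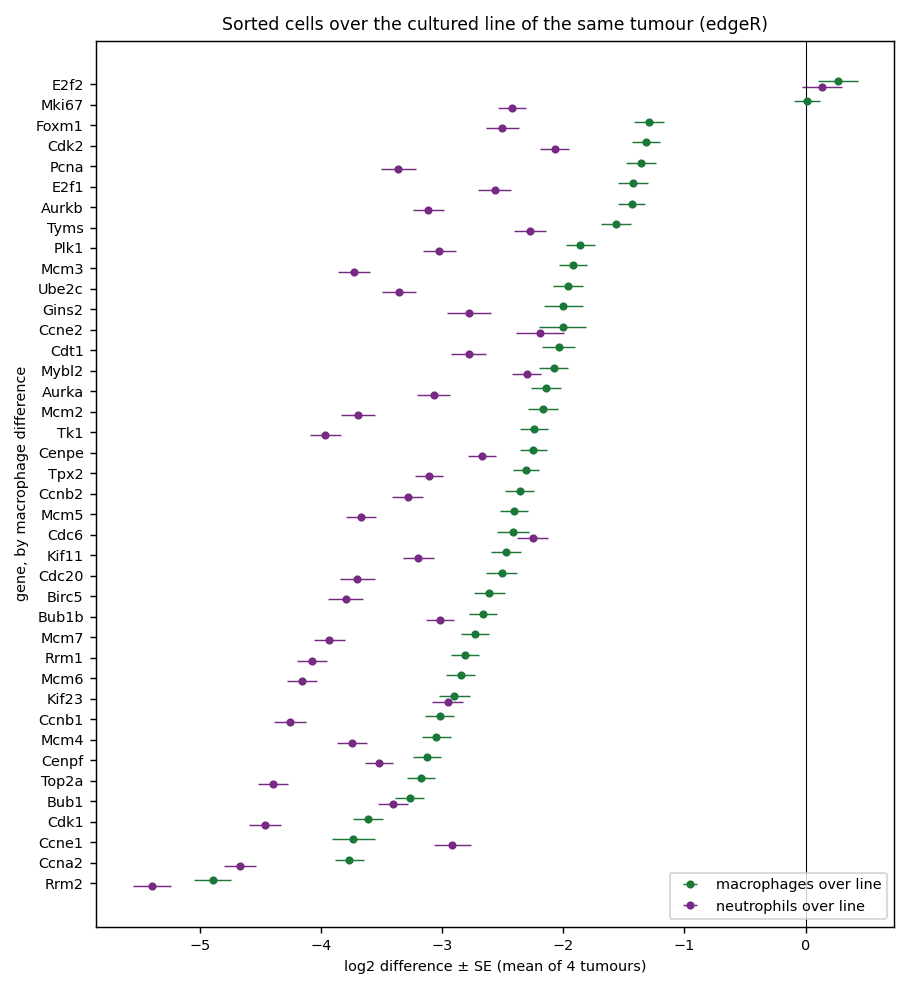
Log2 difference ± SE (edgeR, mean of 4 tumours) from the cultured line of the same tumour for the 40 genes, in macrophages (green) and neutrophils (purple), ordered by the macrophage difference. In macrophages Mki67 and E2f2 lie near 0 and the others left of it, in neutrophils E2f2 alone lies near 0, and Rrm2 is furthest left in both cell types.

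The ratio of Mki67 to Top2a counts within a library needs no scaling between libraries. Equal counts per exon base would give 1.12, from exons of 10061 and 9013 bases. In 2208L tumours the ratio was 8.22, 5.08 and 4.42 in macrophages, 5, 3.83 and 3.69 in neutrophils and 0.566, 0.593 and 0.570 in the line. In T11 tumours it was 6.37, 4.11 and 3.25 in macrophages, 1.54, 1.18 and 2.88 in neutrophils and 0.555, 0.607 and 0.604 in the line. The order of the cell types was the same in both tumours, with 1 overlap between macrophages and neutrophils of 2208L tumours. In AT3 tumours it was 5.06, 4.65 and 4.84 in macrophages, 1.68, 2.03 and 2.19 in neutrophils and 0.767, 0.761 and 0.756 in the line. In E0771 tumours it was 4.25, 1.66 and 3.23 in macrophages, 0.816, 0.764 and 1.13 in neutrophils and 0.189, 0.199 and 0.206 in the line. In all 4 tumours the macrophage and the neutrophil libraries lay above those of the line, and in 3 of 4 the macrophage libraries lay above the neutrophil libraries.

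The ratio was chosen after values of both genes had been seen, so it is a description. Labels were permuted within tumours, but a p-value from the values behind the choice is no support and is not given. Its geometric mean over the 4 tumours was 9.06 times that of the lines in macrophages and 3.95 times in neutrophils, and 2.29 times that of neutrophils in macrophages. Neutrophil values must be read beside their level, since Top2a is below 10-fold of background over the 12 neutrophil libraries together. The neutrophils with the highest ratios, those of 2208L tumours, also had the highest sums of macrophage markers, 3857 to 6001 CPM. Whether these bear on the ratio was not tested. Among the other lines the ratio was 0.843, 0.883 and 0.742 in 4T1 and 0.709, 0.707 and 0.709 in 67NR, and 0.765, 0.868 and 0.782 in PyMT-N and 0.208, 0.215 and 0.189 in PyMT-M. E0771 and PyMT-M thus had the lowest ratios, with all libraries below those of the other 6 lines. Mki67 took 27.04 to 33.6% of the counts of the 40 genes in 2208L, 28.8 to 31.2% in T11, 27.6 to 29.01% in AT3 and 9.21 to 18.3% in E0771 macrophages, against 2.14% to 11.2% over the 24 line libraries.

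**Figure D5:**
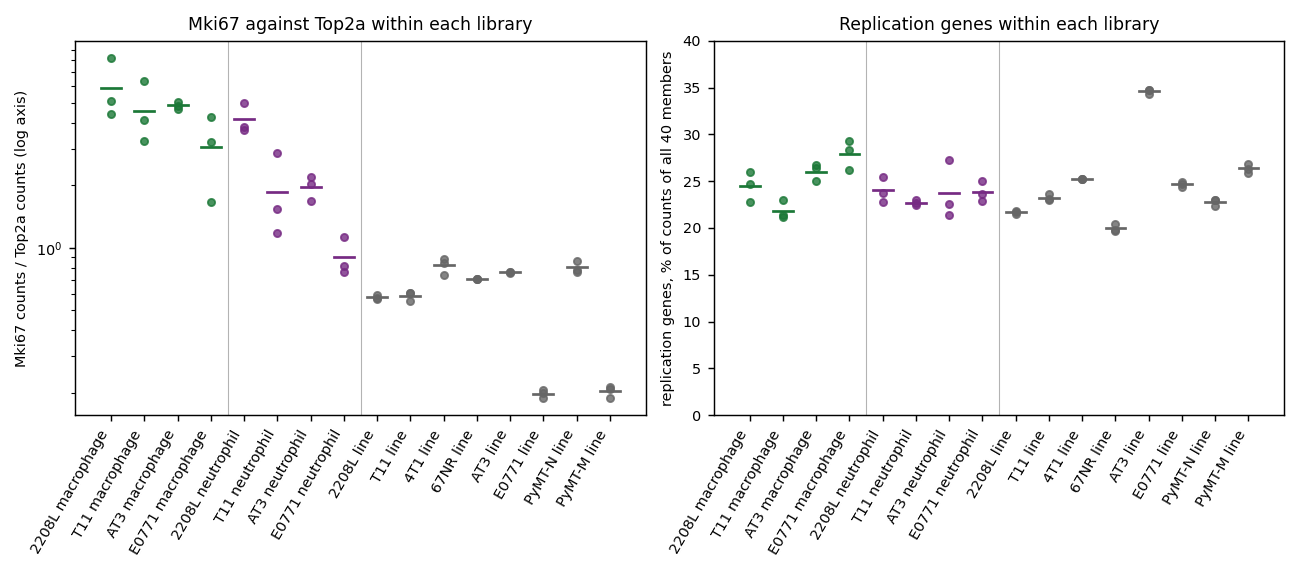
Left, Mki67 counts over Top2a counts (log axis), and right, counts of the 10 replication genes as a percentage of the counts of all 40 genes, for each of the 48 libraries (points) with the mean of the group as a bar. Macrophages lie above the line of their tumour for Mki67 over Top2a, the E0771 and PyMT-M lines are lowest, and the AT3 line is highest for the share of replication genes.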

How the data were processed

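RNA was sequenced from 48 libraries and the authors deposited 1 table of raw counts per gene symbol. Base calls were made with bcl2fastq 2.17 and reads aligned with STAR 2.4.2a to mm10, per the submitters' processing notes, and the counting program, its annotation and its use of strand are not given in the sources used here. Without stated strand, reads of a gene and an overlapping antisense gene cannot be told apart. The deposited counts were used as they stand, with 0 columns of samples left unused. Column names were matched to sample labels, and the columns named PyMTE were taken as PyMT-N because no other column or line was left for them. Ly6g was not analysed here.

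Counts were tested with edgeR 4.0.16 (quasi-likelihood F tests, R 4.3.3), with TMM factors computed once over the 48 libraries outside Rn45s and genes kept by filterByExpr (minimum count 10, minimum total 15). Lines (24 libraries), sorted cells (24), neutrophils (12), macrophages (12) and all 48 were fitted separately, with group means and no block. P-values were Benjamini-Hochberg adjusted over all genes tested, with 0.05 as the threshold of a call. The method was tested on simulated counts. Alternatives were RLE factors, TMM within each fit, Lars2 left out with Rn45s, no filter, DESeq2 1.42.0, a replicate block, the 2 groups alone, genes above background alone, and each library left out in turn. TMM factors from genes above background, library size alone and the Mki67 to Top2a ratio were added after seeing the data.

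Background was the level per exon base of 1452 olfactory and vomeronasal receptor genes, of which 1439 had an exon length, and a gene at least 10-fold above it was called above background. Exon lengths came from the GENCODE annotation of the mouse genome. Gene symbols matched its gene names for 22750 genes, a further 935 by older symbol or synonym, and 369 did not match. Promoters came from RefSeq on GRCm38.p6. The floor used for genes at 0 was 3 counts over a group, which covers counting error only.

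The 40 members, the wider lists and the marker lists were chosen with earlier results of these data known. The rule for named genes gave values in every library for Mki67, Top2a, Ccnb1, Cdk1, Mcm5, Pcna, Rrm2, Ccne1, Ccne2, Cdk2 and E2f1 and the up to 4 members called with the largest difference in each direction, and made up to 3 called genes of each other list eligible in each direction, of which some are named. In comparisons over cultured lines, and for Mcm3 and Tk1 in macrophages over neutrophils, some of these members are given by their difference only. Whether replicate numbers pair libraries is not stated, and no block was used. Replicates of a group were compared by chi-square, and no 2 libraries were identical or within sampling noise, with 1.24 to 12.5 per degree of freedom over 48 pairs.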

Additional observations from a re-analysis of the deposited data

Results flagged for a closer look

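The difference between macrophages and neutrophils was not the same in the 4 tumours for 21 of the 40 genes, against 32.1% of the 17500 genes tested. The count was 12 without T11 neutrophil 2 and was lower with several other settings, given below. The test was an F test of the interaction between cell type and tumour in edgeR, with Benjamini-Hochberg adjustment over all genes tested. The adjusted p of this interaction was 4.23e-06 for Top2a and 2.95e-05 for Mki67, both with the largest ratio of macrophages to neutrophils in T11 tumours. It was 0.000533 for Pcna, 0.000984 for Mcm5, 0.0227 for Cdk2 and 0.031 for Rrm2.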

How the results depend on the processing

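Counts of members called with Benjamini-Hochberg adjusted edgeR tests are given below where they moved by over 1.5 times, and single genes where their sign turned. Calls over all genes move with the scaling too, as shares given above show. Shares of all genes called are not given beside the counts below. These counts therefore do not set the members apart from other genes. The cause of each move was not tested. In 4T1 over 67NR the members higher, 2 as reported, numbered 6 with RLE factors, 4 with TMM within the fit, 5 with DESeq2, and 12 both with TMM factors from genes above background and with library size alone, while the members lower, 22 as reported, numbered 13 on both of the last scales. In AT3 over E0771 lines the members higher, 11 as reported, numbered 17 with RLE factors and with library size alone, 19 with factors from genes above background and 6 with the 2 groups alone, and the members lower, 20 as reported, numbered 8 with factors from genes above background and 11 with the 2 groups alone. With factors from genes above background the AT3 over E0771 differences of Ccnb1, Cdk1, Rrm2 and Ccne2 turned to 0.080, 0.021, 0.19 and 0.31. In PyMT-N over PyMT-M 10 members were higher with DESeq2 in place of 6, 27 were lower with library size alone in place of 16, and Ccnb1 turned to -0.26 there.

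In macrophages over neutrophils the members higher, 32 as reported, numbered 8 with factors from genes above background, 14 with library size alone and 18 with genes above background alone. Of the 40 members 18 passed that filter over the sorted libraries, and 37 pass it in macrophages against 3 in neutrophils, so this count is no check of the direction. The members lower, 1 as reported, numbered 0 with Lars2 left out or genes above background alone, 2 with DESeq2 and 9 on both added scales. Cdk1 and Cdk2 turned to -0.071 and -0.14 with factors from genes above background. The interaction with tumour, called for 21, was called for 11 with RLE factors and with factors from genes above background, 12 with DESeq2 and 10 with library size alone.

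Among neutrophils 27 members differed with factors from genes above background, 18 with library size alone and 2 of those tested with genes above background alone, in place of 9. In neutrophils of 2208L over T11 tumours the members higher, 6 as reported, numbered 3 with TMM within the fit and with no filter, and 2 with RLE factors, DESeq2, either added scale or genes above background alone. The members lower, 0 as reported, numbered 2 with RLE factors, 28 with factors from genes above background and 10 with library size alone. With factors from genes above background Top2a, Ccnb1, Mcm5, Ccne1, Mcm7 and Ube2c turned to -0.71, -1.13, -1.01, -1.50, -0.43 and -0.42, and Top2a to -0.040 with library size alone. In neutrophils of AT3 over E0771 tumours the members lower, 3 as reported, numbered 1 with DESeq2, the replicate block or the 2 groups alone, 6 with library size alone and 0 with genes above background alone.

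In macrophages of 2208L over T11 tumours 7 members were lower with factors from genes above background and 8 with library size alone, in place of 14. In macrophages of AT3 over E0771 tumours the members higher, 2 as reported, numbered 9 with Lars2 left out, 4 with TMM within the fit or genes above background alone, and 1 with RLE factors, no filter, DESeq2, the replicate block, the 2 groups alone and either added scale. The members lower, 1 as reported, numbered 6 with factors from genes above background, 9 with library size alone and 0 with the replicate block, the 2 groups alone or genes above background alone. Over the cultured line, 2 members were higher in macrophages with RLE factors, Lars2 left out, DESeq2 or library size alone, and 1 in neutrophils with RLE factors, DESeq2 or either added scale, in place of 0.

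Leaving out 1 library at a time gave 7 to 16 members higher and 13 to 22 lower in AT3 over E0771 lines, 0 to 1 lower in macrophages over neutrophils, 12 to 27 with an interaction, 5 to 13 that differed among neutrophils, 3 to 6 higher in neutrophils of 2208L over T11 tumours, 0 to 3 lower in neutrophils of AT3 over E0771 tumours, 6 to 17 lower in macrophages of 2208L over T11 tumours, and 1 to 4 higher and 0 to 1 lower in macrophages of AT3 over E0771 tumours. Leaving out each replicate number gave 0 to 1 higher in macrophages over lines, the 1 being without replicate 3.

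No label says what a replicate number stands for. Macrophages and neutrophils of a tumour share sample numbers in the names of their columns, gaps included, and the first of each from E0771 tumours share the other strain label, so each such pair may be from 1 animal. Deviations of same-numbered libraries correlated at -0.123 to 0.184 over 12 macrophage and neutrophil pairs and at -0.202 to 0.305 over 24 pairs of lines or tumours, with 2 pairs over 0.1 in each, and 5 of 12 macrophage libraries correlated best with the neutrophil library of their own number, so the reported fits have no block. The block moved no count of macrophages over neutrophils by over 1.5 times. With the replicate block 40 members differed among lines, 14 were higher and 8 lower in 2208L over T11, 2 and 22 in 4T1 over 67NR, 11 and 20 in AT3 over E0771 and 6 and 16 in PyMT-N over PyMT-M lines. In macrophages over neutrophils 31 were higher and 1 lower, with 21 interactions, and the block gave 8 that differed among neutrophils and 26 among macrophages, 5 higher and 0 lower in neutrophils and 0 higher and 14 lower in macrophages of 2208L over T11 tumours, and 0 higher and 38 and 39 lower in macrophages and neutrophils over lines. Depth limits the sorted libraries most, since many members there rest on few counts.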
